A study of Homo sapiens with 4 samples.

Results

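Lone sites are the N6-methyladenosine (m6A) sites of protein-coding genes in which the C643 list holds a single site. They were selected on the number of listed sites per gene, so the site count of a host is a description here and nothing is read from it. The list held 18789 sites at single adenosines. Of these, 17303 lay in the span of exactly 1 protein-coding gene on the same strand, 1217 were dropped because 2 or more such genes covered them, and 269 lay in none. The assigned sites fell into 3501 host genes, of which 711 (20.3%) held 1 site and 1403 (40.1%) held 5 or more. Those 711 lone sites are set against the 12656 sites of the genes with 5 or more, and where stated against the 3936 sites of the 1387 genes with 2 to 4. The lone host RTEL1-TNFRSF6B, a readthrough locus, has no transcript annotated as protein-coding (its GGACT site at position 63696515 of chromosome 20 scored 0.577). This leaves 710 lone sites for description, 343 on the plus and 367 on the minus strand.

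The sites were mapped in wild-type C643 cells, an established human line from an anaplastic thyroid carcinoma, which were left untreated. miCLIP2 crosslinks an anti-m6A antibody to fragmented polyadenylated RNA, and reverse transcription stops at the crosslinked base. The 3 biological replicates, 1 of them sequenced as 2 technical libraries, were pooled into 1 list by the authors, so there is 1 group, no comparison of conditions and no spread between replicates. Intervals and p-values below therefore describe sites or genes of this list, not cultures, and the read depth behind a site is unknown.

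m6A is placed on nascent messenger RNA by the METTL3–METTL14 methyltransferase complex, mostly at DRACH motifs, in which D is any base but C, R is A or G, the A is the methylated base and H is any base but G. It is known for its accumulation around stop codons and in long exons, and exon junction complexes keep it away from the neighbourhood of splice junctions. Reader proteins of the YTH family bind the mark and act on splicing, export, translation and decay of the transcript.

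The sequences below show what a lone site looks like at 3 places: the strongest predictions, the 5′ UTR and the pentamers outside DRACH. Each is the 21-nt genomic window of GRCh38 on the strand of the gene, 5′ to 3′, with the pentamer around the methylated A in capitals, and each line gives its coordinates, strand and transcript region. The first 8 are the lone sites with the highest prediction scores. All 8 lie in 3′ UTRs, 6 are GGACT and 2 are GAACT.
HMOX1, chr22:35393619-35393639 (+), 3′ UTR: agggccatGAACTttgtccgg
TSPO, chr22:43163000-43163020 (+), 3′ UTR: cccaccagGGACTgcagctgc
TIMM8B, chr11:112085252-112085272 (-), 3′ UTR: gaagcaaaGGACTtgttacta
MRPL54, chr19:3767447-3767467 (+), 3′ UTR: gaggacgtGGACTtttgtgag
ATRAID, chr2:27216977-27216997 (+), 3′ UTR: atcaatctGAACTatcttagc
HDAC3, chr5:141621111-141621131 (-), 3′ UTR: gtagacaaGGACTgagattgc
C6orf62, chr6:24705853-24705873 (-), 3′ UTR: aaatgaaaGGACTattgtaca
CTSL, chr9:87731122-87731142 (+), 3′ UTR: atgaggaaGGACTtgactggg

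The next 4 are the highest scoring lone sites of 5′ UTRs, shown because this region held a larger share of lone sites. The methylated A of OST4 is the first base of an annotated transcript, so the bases before it in its window are not transcribed there.
SAP30L, chr5:154446484-154446504 (+), 5′ UTR: ctggagacGGACTctgggacc
AATF, chr17:36953059-36953079 (+), 5′ UTR: agtatcagTGACTttgagaaa
OST4, chr2:27071639-27071659 (-), 5′ UTR: caggtctcTGACTtcgggctt
ACOT8, chr20:45857310-45857330 (-), 5′ UTR: gcagcattGAACTagatgtcg

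The last 4 are the highest scoring lone sites outside DRACH. In NR1H2, CCT3 and NAA38 the pentamer ends in G where the motif asks for another base, and in CTNNB1 the base after the A is not C.
NR1H2, chr19:50378358-50378378 (+), coding: tgccagatGGACGctttcatg
CCT3, chr1:156309108-156309128 (-), 3′ UTR: aacactgtGGACGtctttgtt
NAA38, chr17:7857090-7857110 (-), coding: tgacagatGGACGgacactgg
CTNNB1, chr3:41239827-41239847 (+), 3′ UTR: atacaaatGGATTttgggagt

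Positions were read on 1 transcript per gene, the longest spliced coding transcript, of good support where available. It need not be the isoform that C643 cells use. Of the 710 lone sites, 324 lay in the 3′ UTR, 302 in the coding sequence and 35 in the 5′ UTR of that transcript. A further 42 (5.92%) lay in an exon of another isoform only, and 7 (0.986%) in introns. The 3′ UTR share of the 661 sites in chosen exons was 49.0% (95% interval 45.2 to 52.8), against 55.3% (53.3 to 57.3) for genes with 5 or more sites, an odds ratio of 0.777 (0.654 to 0.922, n = 661 and 12207 sites, adjusted p = 0.00429, logistic fit with gene-clustered errors). This difference did not pass the threshold with scores of at least 0.7, against genes with 10 or more sites, or with the layout of the host's own motifs as a covariate. The transcript region, the sequence around the A and the signal relative to other peaks of the transcript are all inputs of the m6Aboost classifier that made the list, so region, motif and score are not independent readouts.

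Lone sites gathered around the stop codon. Of the 661, 333 (50.4%, 46.6 to 54.2) lay within 200 nt of the first base of the stop codon along the transcript, against 27.8% (26.6 to 29.0) of the sites of genes with 5 or more. The odds ratio was 2.64 (2.24 to 3.11, n = 661 and 12207 sites, adjusted p = 3.64e-30). It was 1.96 (1.65 to 2.33) with host length and motif number as covariates and 2.23 (1.89 to 2.63) with every gene weighted equally. Genes with 2 to 4 sites were close to lone sites here at 46.5% (44.5 to 48.5), with an odds ratio of 1.17 (0.984 to 1.39) that did not pass the threshold. The median distance from the stop codon was 199 nt for lone sites and 470 nt for genes with 5 or more.

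**Figure D1:**
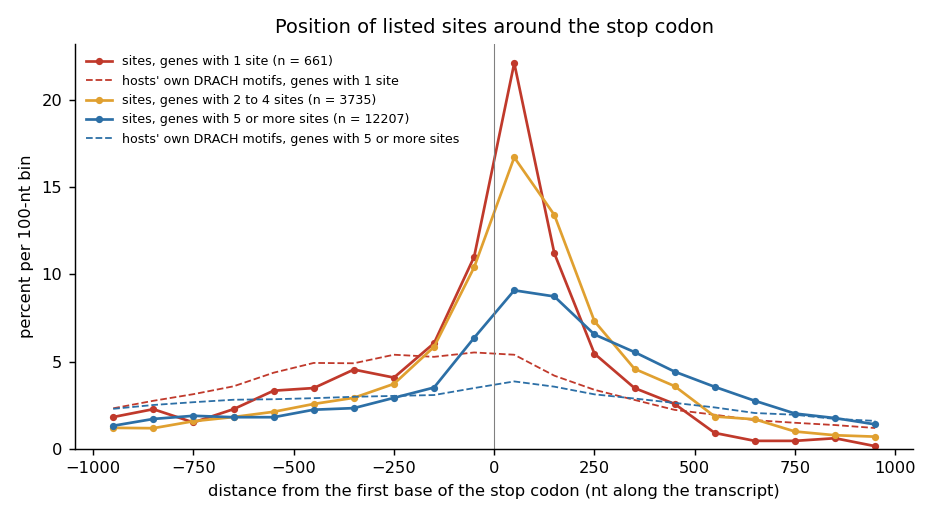
Percent of listed sites per 100-nt bin (y axis) by distance from the first base of the stop codon along the chosen transcript (x axis, nt), for genes with 1 site (red), 2 to 4 sites (yellow) and 5 or more (blue). Dashed lines give the DRACH motifs of the same hosts; the lone sites reach 22.1% in the bin just after the stop codon, where genes with 5 or more reach 9.08%.

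The bin just after the stop codon, shown in the plot of positions around it, held 146 lone sites (22.1%). The hosts' own DRACH motifs, listed or not, placed 5.39% there. In genes with 5 or more sites the same bin held 9.08% of the sites and 3.86% of the motifs. Over the whole 200-nt window, 51.2% of the lone DRACH sites lay near the stop codon against 20.4% of the motifs of their hosts, a ratio of 2.51, and in genes with 5 or more these were 27.7% and 14%, a ratio of 1.98. The motif shares of this window average each host's own share once per compared DRACH site, so a host with more sites weighs more. So do those given below for junctions, the 5′ UTR and GGACT. With the motif layout of each host as a covariate, the odds ratio between the classes was 2.11 (1.75 to 2.55, n = 603 and 10740 sites, adjusted p = 9.85e-15).

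Both sides of the stop codon took part, by fits chosen after these values were seen. Of the 324 lone 3′ UTR sites 215 (66.4%) lay within 200 nt of it, against 31.9% in genes with 5 or more (odds ratio 4.22, 3.31 to 5.37, n = 324 and 6752 sites, adjusted p = 1.68e-30). For the 302 lone coding sites the count was 118 (39.1%), against 24.1% (odds ratio 2.02, 1.58 to 2.6, n = 302 and 5154 sites, adjusted p = 6.38e-08). The median lone 3′ UTR site lay 122 nt into the 3′ UTR, with quartiles at 50.8 and 255.5 nt. The medians were 178 nt in genes with 2 to 4 sites and 361 nt in genes with 5 or more. Lone hosts also had shorter 3′ UTRs (median 740.5 nt, against 1146 nt in genes with 5 or more), and these fits had no covariate for length. Beyond the stop codon the lone sites thinned out quickly, with 6 of the 661 between 500 and 600 nt and 1 between 900 and 1000 nt.

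Of the coding sites, 5 fell on the last base of the stop codon and 5 lay 2 nt before the codon. The 3 first of these 10 in chromosome order are described. In NQO2, a quinone reductase, and PEX5, the receptor that imports enzymes into peroxisomes, the A was 2 nt past the first base of the stop codon, which makes it the last base of that codon; the pentamers were TAACT and TGACA and the scores 0.754 and 0.752. The A in KIF20A, a mitotic kinesin, lay at -2 nt, just before the stop codon, in GTACT with a score of 0.643. In KRT10 (a keratin), MRPL40 (mitochondrial ribosome) and SRPX2 (a secreted protein) the A was the first base of the 3′ UTR, with scores of 0.900, 0.821 and 0.937.

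Lone coding sites lay close to splice junctions more often than coding sites of genes with many. Of 295 coding sites in hosts with a junction, 172 (58.3%, 52.6 to 63.8) were within 100 nt of one, against 24% (22 to 26) in genes with 5 or more and 45.3% (42.1 to 48.5) in genes with 2 to 4. The odds ratio was 4.43 (3.43 to 5.73, n = 295 and 4847 sites, adjusted p = 2.52e-29) against the former and 1.69 (1.3 to 2.2) against the latter. The median lone coding site was 83 nt from its junction, against 244 nt. These medians count the bases that separate a site from the junction. Distances of single sites given below also count the site itself. The exons that held lone coding sites were shorter too, with medians of 366 and 1249 nt in hosts with a junction. The log2 difference was -1.28 (-1.50 to -1.06, n = 295 and 4847 sites, adjusted p = 5.14e-30, linear fit with gene-clustered errors). With exon length as a covariate, added after seeing the data, the junction odds ratio was 2 (1.39 to 2.86).

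Even so, a smaller share of lone coding sites lay near junctions than of the coding DRACH motifs of the same hosts. Among lone coding DRACH sites 56.1% lay within 100 nt of a junction, and 78.7% of the coding motifs of their hosts did, a ratio of 0.713. In genes with 5 or more sites these were 24.5% and 53.8%, a ratio of 0.455. The last exon held 440 of 652 lone sites (67.5%, 63.8 to 71.0) in hosts with several exons, against 75.3% (73.4 to 77.1), an odds ratio of 0.681 (0.562 to 0.825, n = 652 and 11598 sites, adjusted p = 0.000124). Without coding sites of the last exon the junction odds ratio was 4.39 (3.08 to 6.26).

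**Figure D2:**
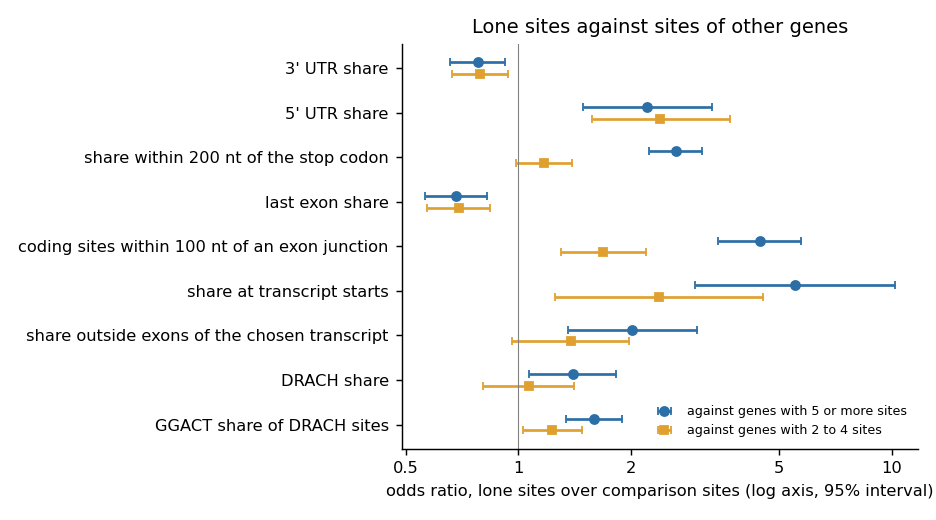
Odds ratios (x axis, log scale, with 95% intervals) of lone sites for 9 properties (y axis), against sites of genes with 5 or more sites (blue circles) and of genes with 2 to 4 (yellow squares). The stop codon and DRACH intervals against genes with 2 to 4 sites include 1, as does that for sites outside the chosen exons; the junction and start ratios are the highest against genes with 5 or more, at 4.43 and 5.51.

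The 5′ UTR took a larger part among lone sites. It held 35 of 661 (5.30%, 3.83 to 7.27), against 2.47% (2.02 to 3.01) in genes with 5 or more and 2.28% (1.77 to 2.93) in genes with 2 to 4, with odds ratios of 2.21 (1.49 to 3.29, n = 661 and 12207 sites, adjusted p = 0.000124) and 2.40. It held fewer lone sites than motifs would place there: 5.64% of lone DRACH sites against 7.69% of the hosts' motifs, a ratio of 0.734, where genes with 5 or more had 0.374. Scores in the 5′ UTR ran from 0.513 to 0.747 with a median of 0.635. The 4 highest were in SAP30L (0.747), a subunit of the SIN3 deacetylase complex, AATF (0.739), a nucleolar protein of ribosome assembly, OST4 (0.738), a small subunit of the oligosaccharyltransferase, and ACOT8 (0.730), a peroxisomal thioesterase. With a score of at least 0.7 and the genes counted again the odds ratio was 1.72 (0.924 to 3.21), which did not pass the threshold.

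Part of the 5′ UTR sites stood at the start of a transcript. Within 10 nt downstream of an annotated start lay 14 lone sites (1.97%, 1.18 to 3.28) and 46 sites of genes with 5 or more (0.363%), an odds ratio of 5.51 (2.97 to 10.2, n = 710 and 12656 sites, adjusted p = 1.26e-07). Of the 14, 13 were DRACH by the genomic pentamer, 11 lay in the 5′ UTR of the chosen transcript and 2, in OST4 and YWHAZ, were at the first base. In these 2, and in UBL5 at base 2, the pentamer begins before the annotated start. The hosts were OST4, EIF2B4, UQCRQ, YWHAZ, DMAC1, CREB3, TMEM141, ARL2, YIF1A, NDUFS8, FKBP4, ATP5MC1, RPS15 and UBL5, among them the respiratory chain and ATP synthase subunits UQCRQ, NDUFS8 and ATP5MC1. Scores of these 14 ranged from 0.519 to 0.738 with a median of 0.570, against a median of 0.698 for the 46. The sets differ in place, as 78.6% of the 14 lay in the 5′ UTR of the chosen transcript, against 28.3% of the 46. Their medians therefore do not compare like positions. The dimethylated adenosine m6Am, which sits next to the cap, is bound by the same antibody, and the list does not tell it from m6A.

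Outside the exons of the chosen transcript lay 49 lone sites (6.90%, 5.26 to 9.01), against 3.55% (2.73 to 4.60), an odds ratio of 2.02 (1.36 to 3.00, n = 710 and 12656 sites, adjusted p = 0.000622). Against genes with 2 to 4 sites it was 1.38 (0.959 to 1.98), not past the threshold. MRPL20, a mitochondrial ribosomal protein, had its site (GGACT, 0.939) in an exon of another isoform. The 7 intronic sites had scores from 0.572 to 0.908. Of the 3 highest, the sites in ENSG00000283782 (0.908) and RBAK-RBAKDN (0.908) lie in readthrough loci, whose span runs over a second gene, and the third was in MPDZ (0.778), a scaffold protein with PDZ domains. Dropping sites covered by 2 genes can also turn a gene with more sites into a lone host. In 27 lone hosts a dropped site lay in the span of the gene, and without them every one of the 14 results kept its direction and its side of the threshold.

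GGACT was the leading pentamer of lone sites with 208 of 710 (29.3%, 26.1 to 32.7), followed by GAACT with 81, GGACA with 80, AGACT with 75, GGACC with 58 and TGACT with 43. DRACH motifs made up 647 (91.1%, 88.8 to 93.0) of the lone sites and 88.0% (87.4 to 88.6) of the sites of genes with 5 or more, an odds ratio of 1.40 (1.07 to 1.82, n = 710 and 12656 sites, adjusted p = 0.0134). Against genes with 2 to 4 the odds ratio was 1.07 (0.804 to 1.41). Among DRACH sites the GGACT share was 32.1% (28.7 to 35.8) for lone sites, 27.8% (26.3 to 29.3) for genes with 2 to 4 and 23% (22.1 to 23.9) for genes with 5 or more. The odds ratios of lone sites were 1.23 (1.03 to 1.48) and 1.59 (1.34 to 1.89, n = 647 and 11139 sites, adjusted p = 2.4e-07). The rule itself limits this comparison, since a gene with many sites can run out of GGACT motifs. Chosen transcripts of genes with 5 or more sites held a median of 4. The part of this limit in the difference was not tested.

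Most hosts of a lone site had other motifs to offer. The median host held 43 exonic DRACH motifs and 2.5 GGACT motifs. GGACT made up 31.5% of the lone exonic DRACH sites but 6.54% of their hosts' DRACH motifs, a ratio of 4.82, where genes with 5 or more had 2.83. The limit set by the number of GGACT motifs per host holds for the latter ratio too. Of 603 lone DRACH sites in exons, 510 (84.6%) had a further GGACT in the same transcript that was not an assigned site. This held for 349 (84.5%) of the 413 lone sites at another DRACH pentamer. Within 50 nt, 459 (76.1%) of the 603 had a DRACH motif that was not an assigned site. In the 27 lone hosts that cover a dropped site, some of these motifs may be listed. The list does not tell an unmethylated motif from one where no peak was called. The shares with an unlisted GGACT or DRACH motif were not computed for other positions or other genes. They therefore do not set lone sites apart.

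Few lone DRACH sites were the motif of their host closest to the stop codon, but more than if every motif were equally likely. Of the 603, 61 (10.1%) were, where 3.09% would be if every motif of a host were equally likely. Of 161 lone GGACT sites whose host had another GGACT, 84 (52.2%) were the GGACT nearest to the stop codon, against 28.0% on the same reckoning. These shares are descriptions without a test.

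The 63 lone sites outside DRACH were led by GGACG with 14, GTACT with 10 and GCACT with 9. Their median score was 0.568, with quartiles at 0.527 and 0.664, against 0.632 in genes with 5 or more. NR1H2, the nuclear receptor LXR beta, had the highest of them (0.898), in coding sequence at -980 nt from the stop codon (before it) and 72 nt from a junction. CCT3, a subunit of the cytosolic chaperonin, followed with 0.885 at 83 nt past the stop codon. NAA38, an auxiliary subunit of an N-terminal acetyltransferase, had 0.773. CTNNB1, beta-catenin, had 0.755 in GGATT at 497 nt past the stop codon, in a transcript that holds 99 DRACH motifs, none of them listed.

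The m6Aboost score is a prediction between 0 and 1 and not a methylation level. Lone sites scored lower than sites of genes with 5 or more, with means of 0.726 and 0.745, medians of 0.731 and 0.757 and a difference of means of -0.019 (-0.0291 to -0.00881, n = 710 and 12656 sites, adjusted p = 0.000318). Among scores of at least 0.7 with genes counted again the difference was -0.00285 (-0.00818 to 0.00249). Scores were also fitted within coding sequence and within 3′ UTRs. Lone coding sites had a mean of 0.680 and those of genes with 5 or more 0.710 (difference -0.0305, -0.0445 to -0.0166, n = 302 and 5154 sites, adjusted p = 3.04e-05). In 3′ UTRs the means were 0.781 and 0.778, and the difference of 0.00348 (-0.0107 to 0.0177, n = 324 and 6752 sites, adjusted p = 0.631) did not pass the threshold. The coding difference minus the 3′ UTR difference was -0.034 (-0.0539 to -0.0141, n = 626 and 11906 sites, adjusted p = 0.00102, interaction term). These region fits were chosen after seeing the data. No fit was made in 5′ UTRs, with means of 0.621 and 0.637, or in introns, with 0.751 and 0.672. By motif, also without a fit, the means were 0.738 and 0.758 in DRACH and 0.602 and 0.654 outside it.

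**Figure D3:**
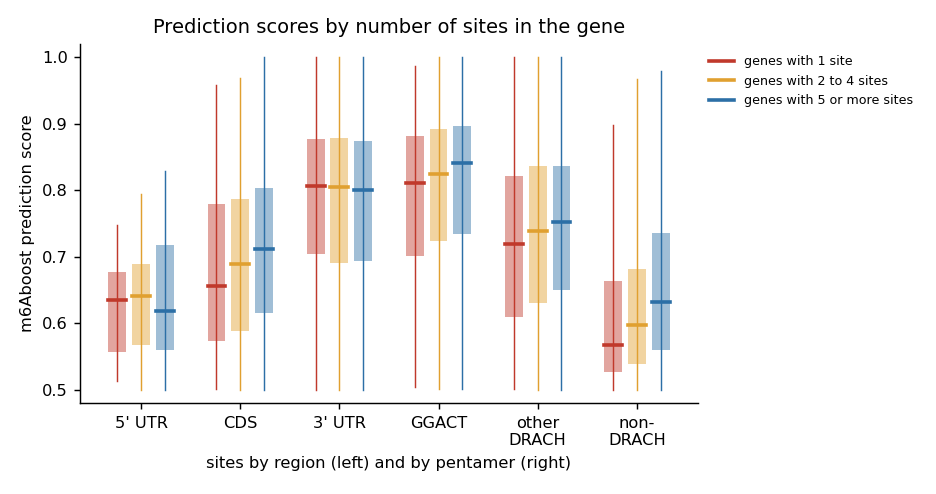
Prediction scores (y axis) of sites by transcript region and by pentamer (x axis) for genes with 1 site (red), 2 to 4 sites (yellow) and 5 or more (blue). Lines mark medians, boxes the quartiles and whiskers the lowest and highest score; the medians of coding sites are 0.656, 0.689 and 0.711, and those of 3′ UTR sites are 0.807, 0.805 and 0.800.

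The plot of scores by region and pentamer has the 3 classes close together in the 3′ UTR, with medians of 0.807 for lone sites and 0.800 for genes with 5 or more. For GGACT the medians were 0.812 and 0.841, and for the other DRACH pentamers 0.720 and 0.753. With pentamer and region as covariates, chosen after seeing the data, the difference of means was -0.0242 (-0.0323 to -0.0161). Of the 25 sites with a score of 1 in the whole list, 1 was a lone site.

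That site was in HMOX1, heme oxygenase, which breaks down heme. It lay 33 nt past the stop codon in GAACT, in a transcript with 21 DRACH motifs and 0 GGACT. TSPO, a cholesterol-binding protein of the outer mitochondrial membrane, scored 0.988 at 21 nt, and TIMM8B, a chaperone of the mitochondrial intermembrane space, 0.982 at 35 nt. In each of these 2 the site was the sole GGACT of the transcript. MRPL54, a mitochondrial ribosomal protein, scored 0.981 at 66 nt and CTSL, the lysosomal protease cathepsin L, 0.971 at 27 nt. ATRAID scored 0.974 at 41 nt. HDAC3, a histone deacetylase of the NCoR complex, scored 0.974 at 349 nt, and C6orf62 scored 0.973 at 276 nt. So 6 of the 8 highest lay within 100 nt of the stop codon. The lowest lone scores were 0.5004 in SHISA4 (TTACT), 0.501 in FBL, the rRNA methyltransferase fibrillarin, 0.502 in MT-ND1 (TTACT), a complex I subunit encoded by mitochondrial DNA, and 0.503 in PRELID1, a mitochondrial lipid carrier.

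Host transcripts of lone sites were shorter. Their median length was 2396 nt against 3361 nt for genes with 5 or more, a log2 difference of means of -0.49 (-0.57 to -0.40, n = 710 and 1403 genes, adjusted p = 2.93e-30, linear fit with robust errors). The coding sequence (medians 1014 and 1467 nt, log2 difference -0.55, -0.64 to -0.45, n = 710 and 1403 genes, adjusted p = 5.76e-29) and the 3′ UTR (740.5 and 1146 nt, -0.64, -0.80 to -0.49, n = 708 and 1402 genes, adjusted p = 1.15e-15) were both shorter. Exonic DRACH motifs numbered 43 and 55 at the median, with a log2 difference of -0.41 (-0.49 to -0.32, n = 710 and 1403 genes, adjusted p = 2.4e-19). Against genes with 2 to 4 sites each difference had the same sign and was smaller, from -0.11 for motifs to -0.21 for the coding length.

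**Figure D4:**
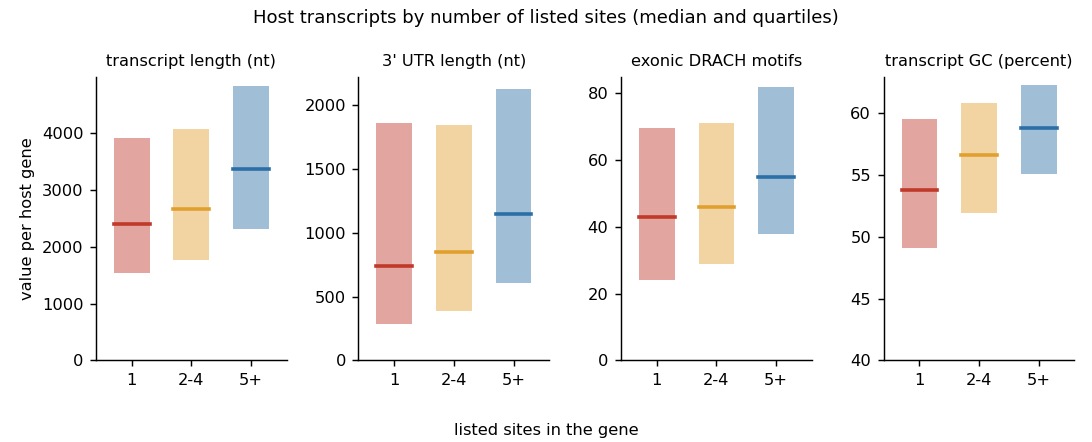
Transcript length (nt), 3′ UTR length (nt), number of exonic DRACH motifs and GC content (percent; this axis starts at 40) of the chosen transcripts (y axes) for host genes with 1 site, 2 to 4 and 5 or more (x axes). Lines mark medians and boxes quartiles; all 4 medians are lowest for genes with 1 site, at 2396 nt, 740.5 nt, 43 motifs and 53.8%.

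The GC content of the transcripts also differed, as the plot of host transcripts shows, with means of 53.9% for lone hosts and 58.5% for genes with 5 or more (difference -4.63 percentage points, -5.22 to -4.03, n = 710 and 1403 genes, adjusted p = 4.69e-52, chosen after seeing the data). The number of exons did not pass the threshold, with medians of 8 in both and a log2 difference of 0.03 (-0.07 to 0.13, n = 710 and 1403 genes, adjusted p = 0.631). Motif numbers of lone hosts spanned a wide range. The fewest DRACH motifs were 5 in OST4 and in LSM7, of the U6 RNA-binding ring, and 6 in TRAPPC6A, of a vesicle tethering complex. The most were 256 in PRKDC, the DNA-dependent protein kinase, 235 in IGF1R, a growth factor receptor, 232 in TRRAP, a scaffold of histone acetyltransferase complexes, 231 in SSH1, a cofilin phosphatase, and 230 in HIVEP3, a zinc finger protein. In PRKDC and TRRAP the lone site lay in the last exon, at -81 and -41 nt from the stop codon (negative values lie before it), at the end of coding sequences of 12387 and 11580 nt. In IGF1R it lay at -3602 nt, in exon 2 of 21.

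Lone hosts were also counted by gene family, as a description with no test, since the number of sites per gene chose them. Over all genes 20.3% of hosts were lone. Among 86 cytoplasmic ribosomal protein genes 32 held a site, and 19 of these (59.4%) held 1. The highest scores of the 19 were 0.864 in RPL39L and 0.863 in RPS24, the latter 10 nt from a junction in coding sequence. These genes have many near-identical pseudogenes and the authors kept uniquely mapped reads, so sites of such genes are uncertain. Among hnRNP and SR splicing factors 5 of 8 hosts (62.5%) were lone, namely HNRNPAB, HNRNPM, SRSF2, SRSF4 and SRSF9. Translation initiation factors had 10 of 19 (52.6%), with the RNA helicases EIF4A1 (0.877) and EIF4A2 (0.829) highest. The span of EIF4A1 also covers 1 dropped site.

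Mitochondrial and proteasome genes were counted in the same way. Of 17 hosts among the respiratory chain and ATP synthase subunits, a list without the lone host MT-ND1, 8 (47.1%) were lone and 0 had 5 or more sites. The highest scores were 0.789 in UQCRFS1 and 0.780 in UQCRH, both of complex III. Mitochondrial ribosomal proteins had 12 lone hosts of 38 (31.6%), with MRPL54 and MRPL20 highest, and proteasome subunits 7 of 20 (35.0%), with the activator subunit PSME1 at 0.921 and PSMB7 at 0.890. Aminoacyl-tRNA synthetases had 4 of 17 (23.5%), GARS1 (0.769) and SARS2 (0.688) being the highest. The span of SARS2 also covers 3 dropped sites.

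**Figure D5:**
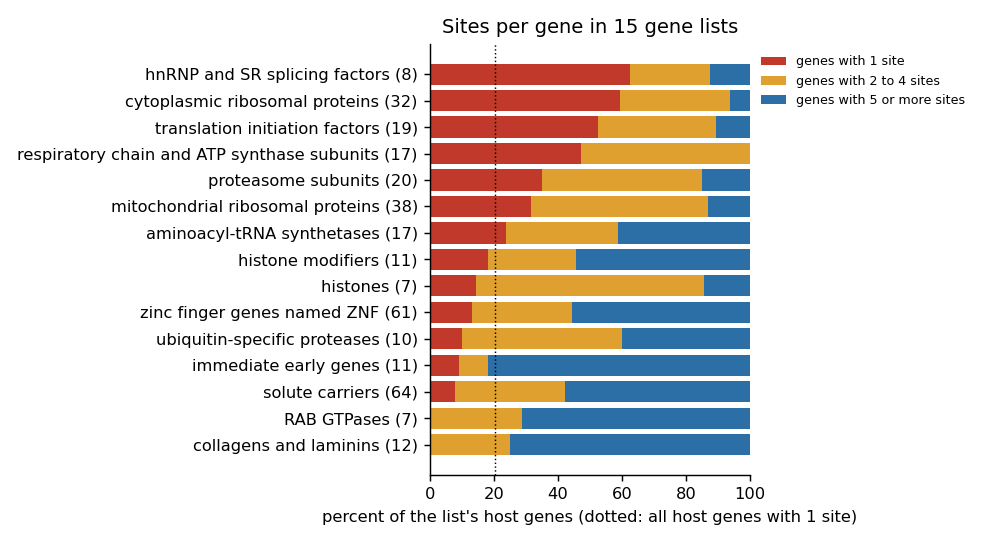
Percent of the host genes of each list (x axis) that held 1 site (red), 2 to 4 (yellow) or 5 or more (blue), for the 15 lists with at least 5 hosts (y axis, number of hosts in parentheses). The dotted line marks the 20.3% of all hosts with 1 site; the lists run from 62.5% for hnRNP and SR splicing factors to 0 for RAB GTPases and for collagens and laminins.

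Other lists had a lower share of lone hosts, a share near the 20.3% over all hosts, or few hosts in all. Of 12 collagen and laminin hosts and of 7 RAB GTPase hosts, 0 were lone. Solute carriers had 5 of 64 (7.81%), of which the mitochondrial carriers SLC25A3 (0.933) and SLC25A26 (0.928) scored highest. Immediate early genes had 1 of 11 (9.09%), which was KLF6 (0.760, coding). Ubiquitin-specific proteases had 1 of 10, USP21 (0.615). Zinc finger genes named ZNF had 8 of 61 (13.1%), with ZNF362 (0.897) and ZNF584 (0.857) highest. Histone modifiers had 2 of 11 (18.2%), HDAC3 and KDM3B (0.622), and histones 1 of 7 (14.3%), the replacement histone gene H3-3B (0.940, 150 nt past the stop codon). Of the lists with under 5 hosts, which the plot of gene lists leaves out, the nucleoporins had 1 of 2, NUP133 (0.668), and the m6A writers, readers and erasers 0 of 3. Peaks need reads, and the part of gene expression in these shares was not tested.

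The genes just outside the rule, the 572 with 2 sites, are described with no test. In them 50.1% of the sites lay within 200 nt of the stop codon, 52.5% in 3′ UTRs and 2.38% in 5′ UTRs. Their coding sites lay within 100 nt of a junction in 48.6% of cases, GGACT made up 29.7% of their DRACH sites, 0.612% stood at a transcript start, and their median score was 0.740.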

How the data were processed

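miCLIP2 was done on polyadenylated RNA of untreated, wild-type C643 cells. Per the labels and the methods, the authors aligned reads to GRCh38 with STAR (version 2.7.3a), removed duplicates with UMI-tools (1.0.0), used SAMtools (1.9) and bedtools (2.27.1), called peaks per replicate with PureCLIP, kept peaks found in several replicates and classified peaks at A with m6Aboost. The deposited list pools the replicates and gives each predicted site with a score, a fraction between 0 and 1. It holds no read counts and no rejected peaks, so depth per site is unknown.

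Genes were those of GENCODE release 44, on the assembly the authors used but newer than their annotation. A site was assigned to a protein-coding gene whose span covered it on its strand. Positions were read on the longest coding transcript whose transcript support level was 3 or better and support level 2 or better, where given. Where a gene had none, the longest of its other coding transcripts was used, complete ones first. Shares were compared by logistic fits and scores by linear fits over sites with gene-clustered errors, and host properties by linear fits over genes with robust errors (statsmodels 0.14.6, Python 3.11.15), two-sided, with Benjamini-Hochberg adjustment over the 14 fits and a threshold of 0.05. The 10 fits chosen after seeing the data were adjusted among themselves. Intervals are at 95%, those of single lone shares by Wilson's method, and cover counting error only. Fits were tested on simulated data. The members, gene lists and tests were chosen with earlier results of these data known. Genes named in the text follow a rule: the 8 highest and 4 lowest scores, the 5 hosts with most and 3 with fewest motifs, the 4 highest scores in 5′ UTRs and outside DRACH, the 3 highest in introns, the 3 coding and 3 3′ UTR sites nearest the stop codon and the 2 highest in each list, with ties taken in order of chromosome and position. Start-site hosts and the lone splicing factors are named in full. A check of the cells' marker genes is not reported here.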

Additional observations from a re-analysis of the deposited data

How the results depend on the processing

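The 14 comparisons with genes of 5 or more sites were run under 128 alternatives in all. In 120 neither the direction nor the call changed, in 8 the direction held but the threshold was not passed, and 0 reversed. The 3′ UTR odds ratio was 0.848 with scores of at least 0.7 (0.0773, here and below the adjusted p in parentheses), 0.841 (0.088) against genes with 10 or more sites and 0.826 (0.0741) with the motif layout as a covariate. With scores of at least 0.7 the 5′ UTR odds ratio was 1.72 (0.0941) and the score difference -0.00285 (0.296). Against genes with 2 to 4 sites the odds ratio was 1.17 (0.0891) near the stop codon, 1.38 (0.0897) outside the chosen exons and 1.07 (0.658) for DRACH. The cause of these was not tested. The junction odds ratio ranged from 1.69 against genes with 2 to 4 sites to 7.18 against genes with 10 or more, was 2 with exon length as a covariate and 2.80 with a window of 50 nt. The near-stop odds ratio ranged from 1.17 to 3.89.

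No paired analysis was possible because the pooled list is a single group, and no replicate was left out for the same reason. Of the 875 genes with 1 site of at least 0.7, 405 were lone in the whole list and 470 held further sites below that score, so membership depends on the score threshold. The list does not show which motifs had enough reads to be called.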
